A study of Rattus norvegicus with 6 samples.

Results

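The genes described here encode 9 membrane carriers that move organic ions across the plasma membrane of rat liver cells: Slco1a1, Slco1a4, Slco1b2, Slco2b1, Slco2a1, Slc10a1, Slc22a7, Slc22a8 and Slc47a1. They were found on the arrays as every non-control probe whose RefSeq transcript belongs to one of these symbols. That gave 14 probes for the 9 genes, out of 61657 non-control probes and 45877 gene names. Liver RNA came from 6 male Sprague-Dawley (Crl:CD(SD)) rats, an outbred stock, bought at 5 weeks of age, with 1 array per animal. A group of 3 was dosed with 400 mg/kg/day of TCEP, which is tris(2-chloroethyl) phosphate, a flame retardant of the chlorinated organophosphate class, and the other 3 were given corn oil. The treatment protocol in the labels gives 9 weeks of dosing, whereas the series' design text gives 28 days. The route is not given in the sources used here.

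Hepatocytes face the blood of the liver sinusoids with a membrane full of carriers, and what these carriers take up becomes available for metabolism and for secretion into bile. The sodium-coupled carrier Ntcp (Slc10a1) takes up conjugated bile acids. The organic anion transporting polypeptides (Oatps, Slco genes) work without sodium and take up bile acids, thyroid hormones, steroid conjugates and many drugs, while the Slc22 carriers Oat2 (Slc22a7) and Oat3 (Slc22a8) exchange smaller organic anions. Slc47a1 encodes Mate1, which expels organic cations in exchange for protons, so it is an export carrier rather than an uptake carrier.

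Signals are given as log2 of the background-subtracted probe signal minus the array's 75th percentile, so 0 is the 75th percentile of that array. A probe was counted as measured when the scanner software had called it well above background in every animal of the TCEP group, of the corn oil group or of both. By that rule 8 of the 9 genes, with 12 of the 14 probes, were measured among 27642 genes and 37043 probes. Slc47a1 was not. Of the 27642 genes, 10982 had a RefSeq symbol. Each other array identifier counted as a gene of its own, and the shares of all genes include these. Where a gene had several probes, its brightest one stands for it, and a probe's brightness is not read as the level of one gene against another.

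The arrays lay on 3 slides. All TCEP animals were on a single slide and the corn oil animals on the other slides, so slide and treatment cannot be told apart. Corn oil replicate 2 lay alone on its slide and was scanned 23 days after the other 5 arrays. It had 57.2% of probes well above background, against 61.6% to 64.4% on the other arrays, and the carrier values that move most without it are given both ways. Of 12 hepatocyte markers 12 were measured, among them albumin (Alb) and transthyretin (Ttr), with summed linear signals of 5872 to 6489 in the TCEP livers and 6165 to 6988 in the corn oil livers. Of 6 measured cholangiocyte markers, Epcam and Spp1 had higher means and Cldn4 a lower mean with TCEP at an unadjusted p under 0.05 (adjusted p 0.50, 0.51 and 0.54 in limma), where 5.01% of all genes were higher and 4.19% lower. The summed signal of that list was 1.87 to 2.74 in the TCEP livers and 1.54 to 1.92 in the corn oil livers. The 10 measured stellate cell markers had summed signals of 38.3 to 40.0 in the TCEP livers and 40.3 to 43.9 in the corn oil livers, without overlap. Of these 10 genes 3 were lower without overlap, against 7.06% of all genes, and Lrat, which esterifies retinol, was at an unadjusted p under 0.05 (-0.43, adjusted p = 0.52 in limma). The part of either list in the carrier results was not tested. Precision is limited by having 3 arrays in each group, and in whole liver a change in the number of cells of a type and a change in RNA per cell cannot be told apart.

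RefSeq promoter sequences, from 250 bases before to 50 bases after the annotated start in rat build GRCr8, were held for 8 of the 9 carriers, with none matched for Slc47a1. Those of Slco1a4 and Slco1a1 are shown, because they are neighbouring paralogs whose signals behaved differently across the animals, as described below. Capitals mark the bases that differ from, or have no partner in, the other promoter in a global alignment. The Slco1a4 window is chr4:176495797-176496096 and the Slco1a1 window chr4:176681943-176682242, both on the - strand. They shared 213 identical bases over 319 alignment columns (66.8%), against 45.8% to 51.4% for the other pairs among the promoters of Slco1b2, Slco1a4, Slco1a1, Slco1a6 and Slco1a5.
Slco1a4: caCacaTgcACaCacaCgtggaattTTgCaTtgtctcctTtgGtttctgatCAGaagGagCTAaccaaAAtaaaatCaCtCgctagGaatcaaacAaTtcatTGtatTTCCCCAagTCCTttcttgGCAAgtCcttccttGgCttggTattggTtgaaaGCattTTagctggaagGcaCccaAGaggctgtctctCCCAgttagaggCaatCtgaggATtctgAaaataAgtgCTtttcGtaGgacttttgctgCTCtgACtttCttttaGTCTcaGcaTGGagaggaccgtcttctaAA
Slco1a1: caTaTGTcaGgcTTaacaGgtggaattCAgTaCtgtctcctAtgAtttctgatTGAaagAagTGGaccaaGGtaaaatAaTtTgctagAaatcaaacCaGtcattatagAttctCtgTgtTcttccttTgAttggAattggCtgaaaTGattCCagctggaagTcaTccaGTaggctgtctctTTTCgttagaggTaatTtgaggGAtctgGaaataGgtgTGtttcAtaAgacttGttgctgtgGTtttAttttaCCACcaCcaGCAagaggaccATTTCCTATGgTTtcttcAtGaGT

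Read by its brightest probe on all 6 arrays, none of the measured carriers differed between TCEP and corn oil livers beyond the spread between animals. Of the 12 measured carrier probes, a dimmer one of Slco2b1 alone separated the groups, where 16.9% of all probes did. That probe did not pass the adjusted threshold. In limma 0 of the 8 measured genes had an adjusted p under 0.05, as did 0% of the 27642 genes tested (smallest adjusted p over all genes 0.29), and 0 of the 8 had an unadjusted p under 0.05, where 9.2% of all genes did. In 0 of the 8 did the values of one group lie beyond all values of the other, against 17.4% of all genes (10.3% higher and 7.06% lower with TCEP). The log2 differences lay between -0.13 (Slco1a1) and 0.08 (Slco2b1), with a median of -0.06 over the 8 genes and 0.00 over all genes. A lower mean with TCEP was found in 7 of the 8 genes, against 49.1% of all genes, but the split was 4 lower and 4 higher when arrays were centred on their median, a scaling that moved the median of all genes to 0.06, and also when corn oil replicate 3 was left out.

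**Figure D1:**
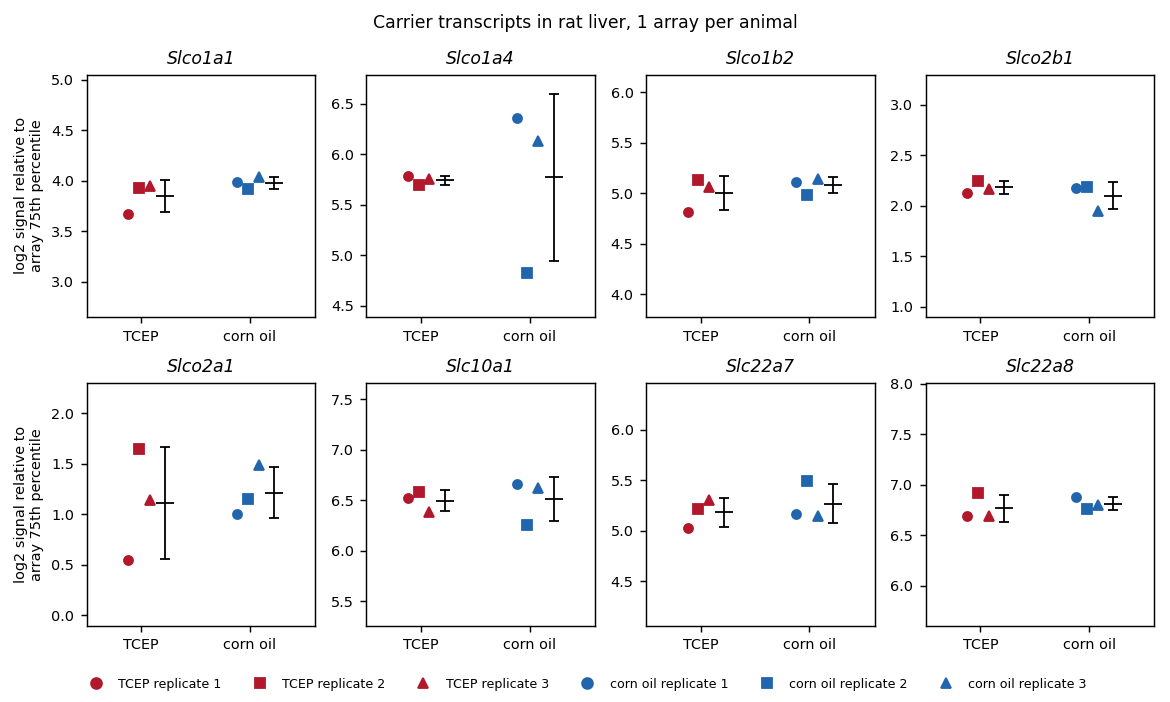
Log2 signal relative to the array's 75th percentile (y axis, all panels spanning the same range) of 8 carrier genes in TCEP livers (red, left) and corn oil livers (blue, right), with 1 point per animal and black bars for the mean and SD. The groups overlap in every panel, and the Slco1a4 panel shows corn oil replicate 2 at 4.82 below all other animals.

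Among the Oatps of the hepatocyte membrane, Slco1a1 (Oatp1a1), a multispecific anion carrier that is higher in male than in female rodents, had the largest negative difference. Its log2 signal was 3.67, 3.93 and 3.95 in the TCEP livers, against 3.99, 3.92 and 4.04 in the corn oil livers. TCEP replicate 1 was the lowest of the 6 animals, and TCEP replicates 2 and 3 lay within the corn oil range. The difference was -0.13 ± 0.11 (SE, 3 animals per group, adjusted p = 0.73 in limma), and the 95% interval of the fold, TCEP over corn oil, ran from 0.756 to 1.1. Slco1b2 (Oatp1b2), the rodent counterpart of the human liver carriers OATP1B1 and OATP1B3, had 4.81, 5.13 and 5.06 in the TCEP livers and 5.12, 4.99 and 5.14 in the corn oil livers. Again TCEP replicate 1 was the lowest animal, and the other values overlapped. The difference of Slco1b2 was -0.08 ± 0.12 (SE, adjusted p = 0.85 in limma), with a fold interval of 0.777 to 1.15.

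Slco1a4 (Oatp1a4), which takes up cardiac glycosides and thyroid hormones and is known in rodents as a gene induced through the nuclear receptor PXR, was the most variable carrier among vehicle animals. Its brightest probe read 5.78, 5.69 and 5.75 in the TCEP livers, against 6.36, 4.82 and 6.13 in the corn oil livers. The TCEP animals thus lay within 0.09 of each other (SD 0.04), between corn oil replicate 2 below and corn oil replicates 1 and 3 above (SD 0.83). The median SD over all genes was 0.14 in the TCEP group and 0.19 in the corn oil group. With all arrays the difference was -0.03 ± 0.39 (SE, adjusted p = 0.99 in limma), and the fold interval of 0.508 to 1.9 is the widest of the 8 genes.

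The other Slco1a4 probes repeated this pattern. The second probe read 3.53, 3.42 and 3.59 in the TCEP livers and 4.17, 2.66 and 4.13 in the corn oil livers. The third probe read 2.32, 2.27 and 2.35 in the TCEP livers and 3.30, 1.53 and 2.86 in the corn oil livers. In all 3 probes corn oil replicate 2 was the lowest of the 6 animals and corn oil replicates 1 and 3 were the highest. The probes are assigned to the same RefSeq transcript, so they are repeated readings of the same animals and not further replicates.

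Within the first scan day, that is without corn oil replicate 2, the Slco1a4 mean was lower with TCEP. The brightest probe then averaged 5.74 in the TCEP livers (3 animals) and 6.24 in the corn oil livers (2 animals), a log2 difference of -0.50 ± 0.12 (SE), or 1.41-fold lower (unadjusted p = 0.0075, adjusted p = 0.53 in limma). The other 2 probes gave -0.64 ± 0.11 and -0.76 ± 0.16 (adjusted p 0.49 and 0.50 in limma). None of the 3 probes passed the threshold after adjustment, and in that fit 8.55% of genes had an unadjusted p under 0.05, with a lower mean in 4.48% of genes and 4.52% of probes. Slco1a4, Slco1a1 and Slc10a1 had TCEP values below both remaining corn oil values, whereas 28.2% of all genes had groups that did not overlap in either direction in that smaller set of arrays, and 13.2% of all genes were lower without overlap.

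**Figure D2:**
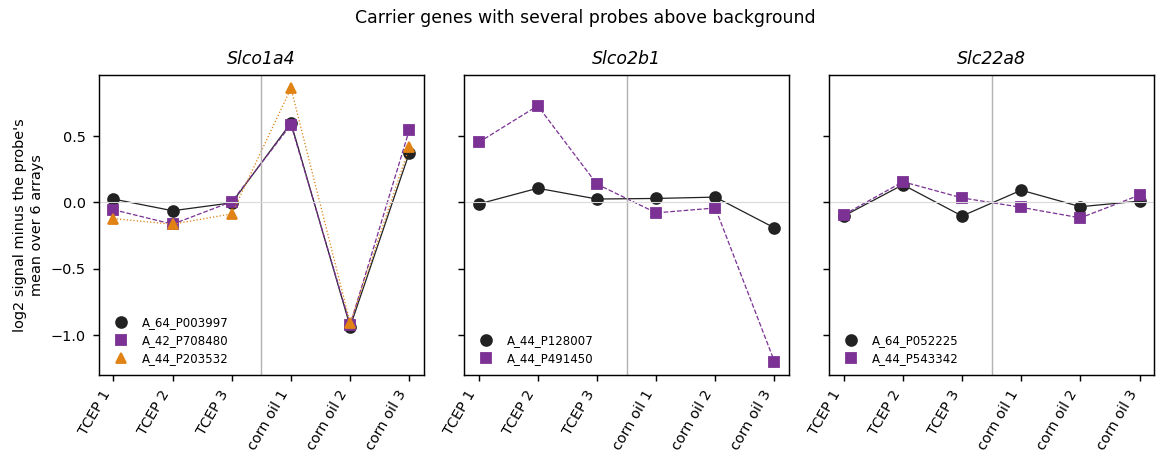
Log2 signal minus the probe's own mean over 6 arrays (y axis) for the probes of Slco1a4, Slco2b1 and Slc22a8, by array (x axis, TCEP left of the grey line, corn oil right of it); lines join the readings of 1 probe. The 3 Slco1a4 probes move together and are lowest in corn oil replicate 2, while the probes of Slco2b1 part in corn oil replicate 3, where the dimmer one reads 0.43 on the log2 scale.

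In corn oil replicate 2 the Slco1a4 signal was 2.68-fold below the mean of the other 2 corn oil animals. Of all genes, 1.58% deviated at least as far in that animal, in either direction. Slco1a4 lies on chromosome 4 in a run of related genes with Slco1b2, Slco1a1, Slco1a6 and Slco1a5, and the values of these neighbours were looked up after the Slco1a4 pattern had been seen. Slco1a6 (Oatp1a6) read -2.18, -1.85 and -1.97 in the TCEP livers, against -0.96, -2.57 and -1.42 in the corn oil livers, with corn oil replicate 2 again lowest and 2.61-fold below the other corn oil animals. Slco1a5 (Oatp1a5) read -0.14, 0.11 and 0.13 in the TCEP livers, against 0.46, -0.20 and 0.33 in the corn oil livers, where that animal was 1.51-fold lower. Of all genes, 1.69% deviated at least as far as Slco1a6 in that animal, and 11.6% at least as far as Slco1a5. In the same animal Slco1a1 and Slco1b2 differed from the mean of the other corn oil animals by -0.09 and -0.14 on the log2 scale, and 70.2% and 58.5% of all genes deviated at least as far. Because close paralogs may cross-hybridise, the values of Slco1a4, Slco1a5 and Slco1a6 may not be separate.

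**Figure D3:**
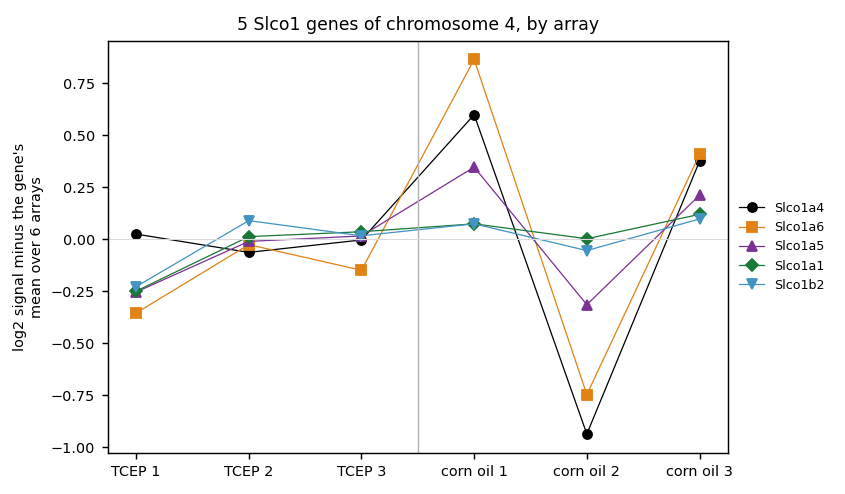
Log2 signal minus the gene's own mean over 6 arrays (y axis) for 5 measured Slco1 genes of chromosome 4, by array (x axis, TCEP left of the grey line, corn oil right of it). Slco1a4, Slco1a6 and Slco1a5 are low in corn oil replicate 2 and high in corn oil replicates 1 and 3, while Slco1a1 and Slco1b2 are lowest in TCEP replicate 1.

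Slco2b1 (Oatp2b1), which carries steroid sulfates and is expressed in many tissues besides liver, had 2 measured probes that differed in what they showed. The brighter probe read 2.13, 2.25 and 2.17 in the TCEP livers, against 2.17, 2.18 and 1.95 in the corn oil livers. These ranges overlapped, and the difference was 0.08 ± 0.10 (SE, adjusted p = 0.83 in limma) with a fold interval of 0.887 to 1.26. The dimmer probe read 2.09, 2.36 and 1.77 in the TCEP livers, against 1.56, 1.59 and 0.43 in the corn oil livers, so that every TCEP value lay above every corn oil value. It was the sole measured carrier probe at an unadjusted p under 0.05 (1.84-fold higher with TCEP, log2 difference 0.88 ± 0.34, unadjusted p = 0.041, adjusted p = 0.55 in limma), against 8.94% of all probes, and the sole one with groups that did not overlap, against 16.9% of all probes (10.1% higher and 6.89% lower with TCEP). Within the first scan day, without corn oil replicate 2, the difference of this dimmer probe was 1.08 ± 0.37 (SE, adjusted p = 0.55 in limma). Without corn oil replicate 3, which had the lowest value, its difference was 0.50.

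The gap between the Slco2b1 probes was set against the spread between animals. On the log2 scale the dimmer probe minus the brighter one was -0.05, 0.11 and -0.40 in the TCEP livers, against -0.62, -0.59 and -1.52 in the corn oil livers. The group means of this gap, -0.11 with TCEP and -0.91 with corn oil, differed by 0.80, with a two-sided p of 0.1 in an exact permutation test, the smallest p that 3 against 3 animals allow. The test was chosen after the values were seen. Both probes are assigned to the same RefSeq transcript, and which exons they hit is not given in the sources used here.

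Slco2a1 (Oatp2a1) carries prostaglandins into cells for breakdown and is known from blood vessel lining as well as from epithelia. It read 0.55, 1.65 and 1.14 in the TCEP livers, against 1.00, 1.16 and 1.49 in the corn oil livers. The TCEP animals included both the lowest and the highest of the 6, with an SD of 0.55, against 0.25 in the corn oil group. Its difference was -0.10 ± 0.29 (SE, adjusted p = 0.93 in limma), with a fold interval of 0.57 to 1.52, and it was 0.18 without TCEP replicate 1. The 11 measured endothelial markers had a median log2 difference of -0.02 (range -0.35 to 0.20). In limma 0 of them had an unadjusted p under 0.05, where 9.2% of all genes did. Their summed linear signals were 59.4 to 66.1 in the TCEP livers and 53.9 to 68.4 in the corn oil livers.

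Slc10a1 (Ntcp), the main sodium-dependent carrier of conjugated bile acids into hepatocytes, read 6.52, 6.58 and 6.38 in the TCEP livers, against 6.66, 6.26 and 6.62 in the corn oil livers. Corn oil replicate 2 was the lowest of all animals, and corn oil replicates 1 and 3 were the highest. The difference was -0.02 ± 0.14 (SE, adjusted p = 0.98 in limma), and the fold interval ran from 0.783 to 1.25. Within the first scan day the difference was -0.14 ± 0.11 (SE, adjusted p = 0.72 in limma).

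The Slc22 anion exchangers also had groups that overlapped. Slc22a7 (Oat2), an anion carrier first cloned from rat liver, read 5.02, 5.22 and 5.30 in the TCEP livers, against 5.17, 5.50 and 5.14 in the corn oil livers. Here corn oil replicate 2 was the highest animal, and the difference of -0.09 ± 0.14 (SE, adjusted p = 0.87 in limma) was 0.03 without it. With all arrays the fold interval of Slc22a7 was 0.746 to 1.19. Slc22a8 (Oat3), best known for the uptake of drugs and anionic metabolites from blood into kidney tubule cells, read 6.69, 6.92 and 6.69 in the TCEP livers, against 6.88, 6.76 and 6.80 in the corn oil livers. It had the smallest range over the 6 animals of the 8 genes, 0.24 log2 units, where the median gene had 0.52. Its difference was -0.05 ± 0.11 (SE, adjusted p = 0.91 in limma) with a fold interval of 0.81 to 1.16, and its dimmer probe gave 0.06 ± 0.11.

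Slc47a1 (Mate1) lay near the detection limit. Its brighter probe had processed signals of 22.1, 27.3 and 15.9 intensity units in the TCEP livers, against 19.2, 27.8 and 24.3 in the corn oil livers, and was well above background on 2 of 3 arrays in each group. These ranges overlapped. The dimmer probe had 9.07, 18.0 and 11.4 intensity units in the TCEP livers, against 7.37, 5.52 and 4.84 in the corn oil livers. It was well above background on 1 TCEP array and 0 corn oil arrays. Every TCEP value of this probe lay above every corn oil value, but most of these readings were not well above background. With neither group measured on all of its arrays, no fold is given for this gene with all 6 arrays. Within the first scan day its brighter probe counted as measured through the 2 remaining corn oil arrays alone, and the groups overlapped. The log2 difference was then -0.08 ± 0.27 (SE, adjusted p = 0.94 in limma), from signals near the detection limit. It is not read as a result, because the probe passed only through the group with the higher mean.

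**Figure D4:**
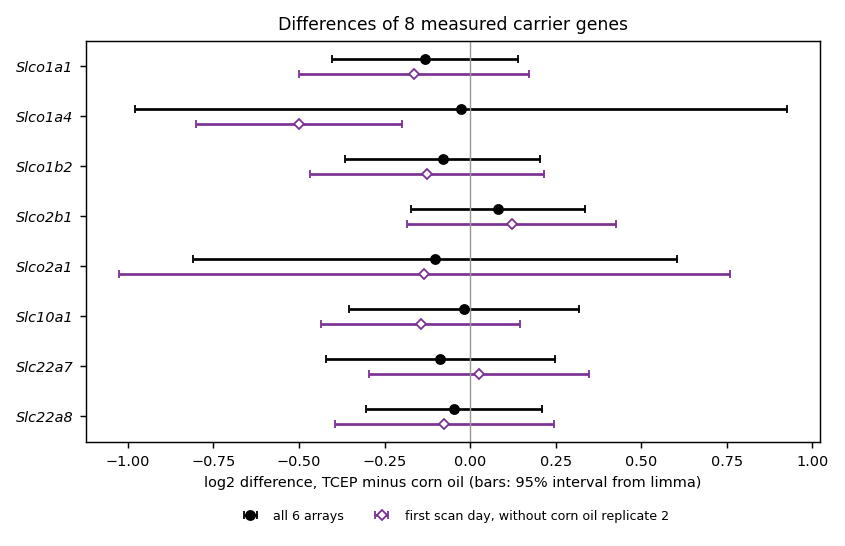
Log2 difference, TCEP minus corn oil (x axis, bars for the 95% interval from limma), of 8 carrier genes with all 6 arrays (black circles) and within the first scan day (open diamonds, 2 corn oil arrays). Every interval with all arrays spans 0, and within the first scan day the interval of Slco1a4 alone, -0.80 to -0.20, does not.

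Among 38 other carriers of organic ions, 25 were measured, and in limma 0 of them had an adjusted p under 0.05. At an unadjusted p under 0.05 there were 2 with a higher mean, where 5.01% of all genes were, and 1 with a lower mean, where 4.19% were. Slc22a18, an imprinted gene for a putative organic cation carrier, read 7.23, 7.45 and 7.58 in the TCEP livers, against 6.99, 6.86 and 7.18 in the corn oil livers, a difference of 0.41 ± 0.14 (adjusted p = 0.51 in limma).

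The lower mean belonged to Slco5a1, an Oatp of unsettled substrates, at -2.95, -2.62 and -3.89 in the TCEP livers, against -2.01, -2.23 and -2.14 in the corn oil livers (difference -1.03 ± 0.32, SE, adjusted p = 0.50 in limma), and -0.66 without TCEP replicate 3. The nucleoside carrier Slc29a1 and the orphan carrier Slc22a23, named for their bright probes, had differences of -0.06 ± 0.21 and 0.01 ± 0.16. The list had a median of -0.02, against 0.00 over all genes, with 12 higher and 13 lower means.

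Of 24 listed regulators and partners of hepatic carriers 23 were measured, and 0 passed after adjustment in limma. At an unadjusted p under 0.05 there were 2 with a higher mean, where 5.01% of all genes were, and 0 with a lower one, where 4.19% were. The bile acid receptor FXR (Nr1h4) read 5.20, 5.34 and 5.71 in the TCEP livers, against 5.06, 5.09 and 4.82 in the corn oil livers (difference 0.42 ± 0.16, SE, adjusted p = 0.53 in limma). Its groups did not overlap, as in the 10.3% of all genes that were higher without overlap. Its other probes gave 0.46 and 0.30. Dbp, a clock output factor, read 2.60, 2.48 and 2.77 in the TCEP livers, against 2.29, 2.27 and 2.11 in the corn oil livers (0.39 ± 0.11, adjusted p = 0.48 in limma), and its other 3 probes gave 0.34 to 0.40.

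SHP (Nr0b2), the repressor that FXR induces and that is known to lower Ntcp expression in rats, read 5.91, 7.03 and 6.32 in the TCEP livers, against 6.39, 4.02 and 7.13 in the corn oil livers. Corn oil replicate 2 was again the lowest, and the difference of 0.57 ± 0.80 (adjusted p = 0.85 in limma) was -0.34 without it. PXR (Nr1i2) and Cebpb had differences of -0.16 ± 0.21 and -0.10 ± 0.25. The receptor CAR (Nr1i3), named after its values were seen, read 2.84, 3.52 and 2.76 in the TCEP livers, against 3.59, 2.49 and 3.61 in the corn oil livers, where replicate 2 was 2.16-fold below the others. Of all genes, 3.06% deviated at least as far in that animal. Other listed regulators went the other way there. Onecut1, also named after its values were seen, read 4.38, 1.76 and 5.07 in the TCEP livers, against 1.39, 5.14 and 0.39 in the corn oil livers. Corn oil replicate 2 was thus its highest animal, with TCEP replicate 3 close to it.

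**Figure D5:**
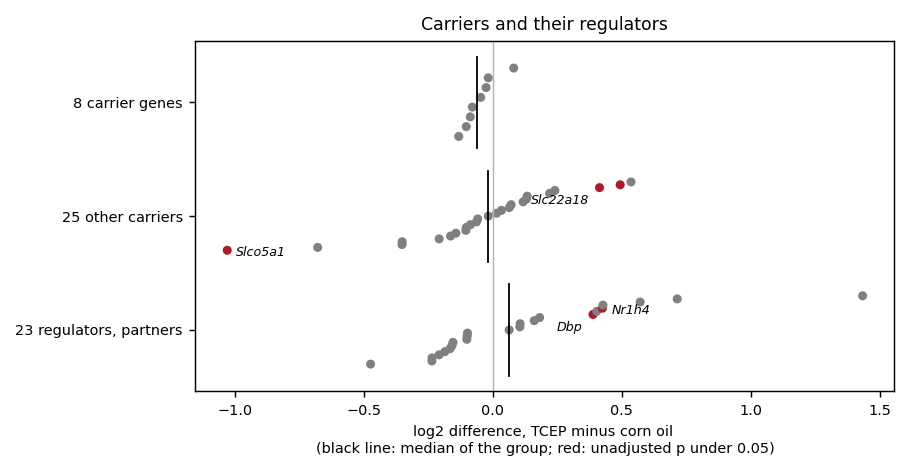
Log2 difference, TCEP minus corn oil (x axis), of the 8 measured carrier genes, 25 other carriers and 23 regulators and partners, with 1 point per gene, a black line for each median and red for an unadjusted p under 0.05. The 8 carriers lie between -0.13 and 0.08, while the points of the lists run from -1.03 (Slco5a1) to 1.43 (Onecut1).

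The genes whose profile over the 6 arrays was most like that of Slco1a1, the measured carrier with the smallest unadjusted p (0.28), were sought among 10438 genes with a symbol detected on every array. Likeness was the root mean square difference between log2 profiles, each centred on its own mean. The closest were Eef1e1 (0.022 log2 units), Sar1b (0.03) and Ptprm (0.036). Slco1a1 itself ranged over only 0.37 log2 units, where the median gene had 0.52, so likeness here is between flat profiles. Whether these genes share any regulation was not tested.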

How the data were processed

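Cy3-labelled cRNA from each liver was hybridised to 1 Agilent array, per the labels' protocols. The deposited signal intensities came from the authors' use of Feature Extraction, version 10.7.1.1 per the file headers and 10.7 per the submitters' processing notes. These are background-subtracted but not normalized between arrays. The deposited value table holds a ratio of that signal to the array's 75th percentile, on a linear scale with no centring, read from its values (column medians 0.0953 to 0.1035).

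For each scanner file, log2 signals minus each array's 75th percentile were computed over 61657 probes. The 1319 control spots were left out, 64 outlier-flagged spots set to missing (none in a carrier probe) and 5 saturated spots kept. RefSeq symbols (GRCr8) matched 27460 probes. Coordinates are given for promoters alone, since the arrays were designed on an earlier build. The comparison used limma 3.58.1 in R 4.3.3 (lmFit, then eBayes; two-sided) and Benjamini-Hochberg adjustment over all genes, or over all probes for values of a gene's dimmer probes, and a threshold of 0.05. The fit was tested on simulated data. Promoters were aligned with Biopython 1.88.

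The treatment label gave the groups and the titles gave the replicate numbers. Each sample was taken as 1 animal, since the treatment protocol counts 3 in a group. Named genes are all members and, from each of 2 lists, those at an unadjusted p under 0.05 (up to 6) and the 4 brightest. Lists and members were chosen with earlier results of these data known. Some listed genes, counted with their lists, are not reported here. Alternatives were other normalizations, background correction with normexp (offset 50, on the median signal), the deposited table, dim-probe filters, the mean over probes, eBayes with trend and robust, slide and replicate blocks, outlier spots kept, and leaving out each array.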

Additional observations from a re-analysis of the deposited data

How the results depend on the processing

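In all 17 alternatives 0 genes passed the adjusted threshold, the carriers and both lists included. Single carrier probes were tested in 16 of these, all but the mean over probes, and 0 passed. The smallest adjusted p over all genes in limma ran from 0.06 to 0.743. With 1 array left out, 6974 to 8963 genes had groups that did not overlap (4807 with all arrays; fewer arrays overlap less often by construction), and 1644 to 3224 had an unadjusted p under 0.05 (2543 with all arrays, 1644 without TCEP replicate 3). Over all genes, groups did not overlap in 4530 genes with quantile normalization and in 5269 with centring on the median. The counts were 5038 with normexp and 4745 with the mean over probes, beside 4807 (17.4%) in the main fit. Of the 8 carriers, groups did not overlap in 2 with quantile normalization (Slco1a1 and Slco1b2, lower), in 1 with centring on the median (Slco2b1, higher), in 1 with normexp (Slco1a1, lower), in 1 with the mean over probes (Slco2b1, higher, 0.48) and in 0 to 3 with 1 array left out. The number at an unadjusted p under 0.05 was 0 to 1 with 1 array left out, the 1 being Slco1a4 without corn oil replicate 2, which equals the fit within the first scan day.

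Centring on the median turned the difference of Slco1a4 to 0.033, of Slc10a1 to 0.041 and of Slc22a8 to 0.012. Normexp turned Slco1a4 to 0.11 and Slco2a1 to 0.022, and the mean over probes turned Slc22a8 to 0.0088 and Slc22a23 to -0.11, as quantile normalization did (-0.088). With 1 array left out the differences ran from -0.50 to 0.27 for Slco1a4, -0.64 to 0.12 and -0.76 to 0.12 for its other probes, -0.14 to 0.014 for Slco1b2, -0.37 to 0.18 for Slco2a1, -0.14 to 0.054 for Slc10a1, -0.15 to 0.026 for Slc22a7, -0.12 to 0.17 for Slc22a23, -0.27 to 0.10 for Slc29a1, -0.34 to 1.21 for Nr0b2 and -0.32 to 0.15 for Cebpb. The cause of these turns was not tested. Slco1a1 and Slco2b1 kept their direction in all 17 alternatives but ran from -0.18 to -0.041 (without TCEP replicate 1) and from 0.0051 (without corn oil replicate 3) to 0.12 with 1 array left out. The named Slco5a1, Slc22a18, Dbp and Nr1h4 kept theirs too, but their choice used p-values from the same 6 animals.

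Same-numbered animals of the 2 groups did not deviate together (correlations of -0.05, -0.16 and -0.02), so the numbers were not taken as pairs. With the replicate block 0 genes passed and 1901 had an unadjusted p under 0.05. Slc47a1 is limited by signal over background.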

Other observations

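Slco1a3, a further gene of the same chromosome 4 run that was in no list, was not well above background on any TCEP array. Its first probe had processed signals of 2.79, 2.98 and 3.46 intensity units in the TCEP livers, against 3.25, 112 and 3.07 in the corn oil livers, so it was well above background in corn oil replicate 2 alone. Its other 2 probes were not well above background on any array, with 5.03 and 5.67 intensity units in that animal. The value of the first probe carried no outlier flag, and whether it reflects this transcript was not tested.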
